A study of Mus musculus with 12 samples.

Results

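Replication-dependent histone genes were described in bulk RNA-seq of sorted mouse haematopoietic stem cells (HSCs), from which every kind of blood cell descends. They were taken by name, as every row of the deposited table that starts with Hist and a cluster number from 1 to 4 followed by the class (H1, H2A, H2B, H3 or H4) and that had a value above 0 in at least 1 library. Of 24946 rows kept, 69 matched and 67 had a value above 0. *Hist1h2aa* and *Hist2h3c1* were listed at 0 in all 12 libraries. The members comprised 6 H1, 18 H2A, 19 H2B, 11 H3 and 13 H4 genes, of which 54 lie in the Hist1 cluster, 9 in Hist2, 3 in Hist3 and 1 in Hist4.

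The 12 libraries formed 4 groups of 3 on a C57BL/6 background. WT naive and *Bst2* KO naive HSCs came from untreated mice, and WT IFN-γ and KO IFN-γ HSCs from mice given 100 µg of recombinant interferon-γ (IFN-γ) for 24 h. *Bst2* encodes tetherin, a membrane protein that interferon induces, and no other allele or agent is named. Each library title also carries a code from 1 of 3 series, whose meaning is not stated. FL-06 held 6 libraries (WT naive 1 and 2, WT IFN-γ 1 and 2, KO naive 3 and KO IFN-γ 1), R-07 held 2 (KO naive 2 and KO IFN-γ 3), and R-09 held 4, 1 from each group (WT naive 3, WT IFN-γ 3, KO naive 1 and KO IFN-γ 2). Which mouse each library came from is not stated, so the p-values reflect the variation among libraries, part of which may be technical. As a check of the labels, *Bst2* had 152.1 to 606.5 normalized counts in the 4 FL-06 WT libraries, 1367 and 1514 in the 2 R-09 WT libraries and 0 to 24.8 in the 6 KO libraries, so that WT and KO did not overlap.

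Replication-dependent histones package newly made DNA and are transcribed mainly during S phase. Their mRNAs end in a conserved stem-loop, bound by the stem-loop binding protein SLBP, in place of the poly(A) tail that other mRNAs carry. Some of these genes are also known to give polyadenylated transcripts. Replacement histones, such as H3.3 and H2A.Z, are made from ordinary polyadenylated mRNAs throughout the cell cycle. HSCs are known as a largely quiescent population, and IFN-γ as a cytokine that can drive them into division.

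The stem-loop is what sets these mRNAs apart, so its letters were read from the GENCODE M21 transcripts (GRCm38), matched by gene name. The motif searched, on the transcript strand, was GG, any 3 bases, TTTT, any base, A, any 3 bases and CC, with the first 6 bases complementary to the last 6. It was found after the stop codon of 43 of the 67 members, 21 to 58 bases downstream. Of 55450 genes in the annotation 57 held these letters (0.103%), and 44 of them carry Hist1 to Hist4 names. The windows below show the forms found, with the 16-base stem-loop in capitals and up to 5 bases on either side.

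Hist1h1c, chr13:23739507-23739532, + strand: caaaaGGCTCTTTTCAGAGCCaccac
Hist2h2aa1, chr3:96246027-96246052, + strand: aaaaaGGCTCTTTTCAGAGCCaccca
Hist1h2ao, chr13:21810893-21810918, + strand: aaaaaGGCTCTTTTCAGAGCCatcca
Hist2h2ac, chr3:96220413-96220438, - strand: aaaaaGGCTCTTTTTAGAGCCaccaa
Hist1h3c, chr13:23745042-23745067, - strand: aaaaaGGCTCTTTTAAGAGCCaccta
Hist1h4d, chr13:23581945-23581970, + strand: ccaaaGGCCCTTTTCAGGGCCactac
Hist1h4b, chr13:23757361-23757386, + strand: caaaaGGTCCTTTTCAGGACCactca
Hist1h4i, chr13:22040961-22040986, - strand: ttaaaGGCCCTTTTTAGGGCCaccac

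The form of *Hist1h1c* was the commonest, in 25 members (3 H1, 10 H2A, 8 H2B and 4 H3). The 11 H4 genes with a match used 3 other forms, in 7, 2 and 2 genes. Of the 24 members without the letters, 16 have an annotated transcript that ends within 20 bases of the stop codon, so the window that would hold them is not in the annotation. The 6 whose transcripts run further without the letters were *Hist1h1a*, *Hist1h2bc*, *Hist1h3g*, *Hist1h4a*, *Hist2h2be* and *Hist2h3b*. Of these, *Hist1h1a* ends 48 and *Hist2h3b* 37 bases after the stop codon. Since the stem-loop of other members starts 21 to 58 bases after it, both annotations may be too short to hold the letters. The remaining 2, *Hist1h2al* and *Hist3h2bb-ps*, have no annotated stop codon.

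Of the 67 members, 59 matched a RefSeq promoter (GRCm38.p6), 250 bases before to 50 after the gene start. The octamer ATTTGCAT, an element known from H2B promoters, was found on either strand in 20.3% of member promoters and in 1.74% of all 32851 promoters. It was in 37.5% of H2A and 37.5% of H2B promoters, and in 0 of 6 H1, 9 H3 and 12 H4 promoters. A CCAAT box was in 84.7% of member promoters and in 37.4% of all promoters, with 25% in H4 and 100% in the other classes. A TATAAA box was in 57.6% and 13.6%. Some windows of neighbouring H2A and H2B genes on opposite strands overlap, and a site in the overlap counts for both genes. The promoters below are those of *Hist1h2bk*, whose window holds all 3 motifs, of *Hist2h2aa1*, the member with the highest level, and of *Hist1h2ao*, which behaved differently from the others. The window of *Hist1h2bk* overlaps that of *Hist1h2ah*. Its only TATAAA match is on the opposite strand and is also the match of *Hist1h2ah*. Capitals mark ATTTGCAT, CCAAT and TATAAA on either strand, and where motifs overlap the capitals run together.

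Hist1h2bk, chr13:22035571-22035870, + strand: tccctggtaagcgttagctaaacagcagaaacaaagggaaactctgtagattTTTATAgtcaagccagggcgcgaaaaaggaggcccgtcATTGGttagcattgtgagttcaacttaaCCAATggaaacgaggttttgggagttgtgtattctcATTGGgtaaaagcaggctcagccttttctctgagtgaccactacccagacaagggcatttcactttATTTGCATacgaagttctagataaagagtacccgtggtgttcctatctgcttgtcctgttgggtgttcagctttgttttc
Hist2h2aa1, chr3:96245247-96245546, + strand: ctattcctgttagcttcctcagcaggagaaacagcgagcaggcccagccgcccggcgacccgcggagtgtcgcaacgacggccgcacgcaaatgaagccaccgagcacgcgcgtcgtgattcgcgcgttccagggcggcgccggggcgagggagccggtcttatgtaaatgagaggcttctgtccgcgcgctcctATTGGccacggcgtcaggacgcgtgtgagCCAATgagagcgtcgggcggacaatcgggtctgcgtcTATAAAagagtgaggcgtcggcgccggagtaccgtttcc
Hist1h2ao, chr13:21810117-21810416, + strand: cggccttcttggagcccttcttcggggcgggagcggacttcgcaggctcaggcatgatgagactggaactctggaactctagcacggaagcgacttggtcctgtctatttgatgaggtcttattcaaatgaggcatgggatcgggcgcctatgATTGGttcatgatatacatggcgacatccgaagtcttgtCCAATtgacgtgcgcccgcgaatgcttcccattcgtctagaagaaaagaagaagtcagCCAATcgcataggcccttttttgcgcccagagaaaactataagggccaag

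The members are near-copies of each other, which limits what a value per gene means. In 41 of the 67, under 50% of the 31-base words of the transcript were found in no other annotated gene. *Hist2h2aa1* and *Hist2h2bb* had 0% unique words, and *Hist1h2bq* and *Hist1h2br* shared 100% of theirs. *Hist1h2ao* shared 93.8% of its words with *Hist1h2ap*. How the authors counted reads that match several copies is not given in the sources used here. Single members of such pairs are therefore uncertain. A class sum does not depend on the split within the class if each read was counted for 1 member. It does depend on the rule if such reads were dropped or counted for every copy. *Hist2h2aa1* also shared 100% of its words with the annotated gene *Gm20633*, and *Hist2h2bb* and *Hist2h3b* with *Gm20628*, which are not members. Across classes, *Hist1h1e* shared 24.5% of its words with *Hist1h2be*.

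The R-09 library stood apart from the others in every group. The 67 members summed to 197275 to 263410 deposited normalized counts (called units here) in the 6 FL-06 libraries, to 248623 and 232505 in the 2 R-07 libraries, and to 22209 to 25614 in the 4 R-09 libraries. They made up 1.14 to 1.55% of all units in the 8 libraries outside R-09 and 0.152 to 0.175% in R-09. By library, the sums were 229004 in WT naive 1 and 249210 in WT naive 2, and 22293 in WT naive 3. They were 257272, 263410 and 22209 in WT IFN-γ 1 to 3, 25614, 248623 and 197275 in KO naive 1 to 3, and 209437, 23903 and 232505 in KO IFN-γ 1 to 3. Each group thus held 2 high libraries and 1 low one, and the low one was the R-09 library each time. In bulk RNA, fewer cells that make these transcripts and less of them per cell cannot be told apart. RNAs without a poly(A) tail moved with the code series too: *Rpph1*, the RNA of RNase P, had 132100 to 265100 units in FL-06, 134000 and 141700 in R-07 and 0 to 48.5 in R-09. The part of RNA selection during library preparation in the histone values of R-09 was not tested.

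**Figure D1:**
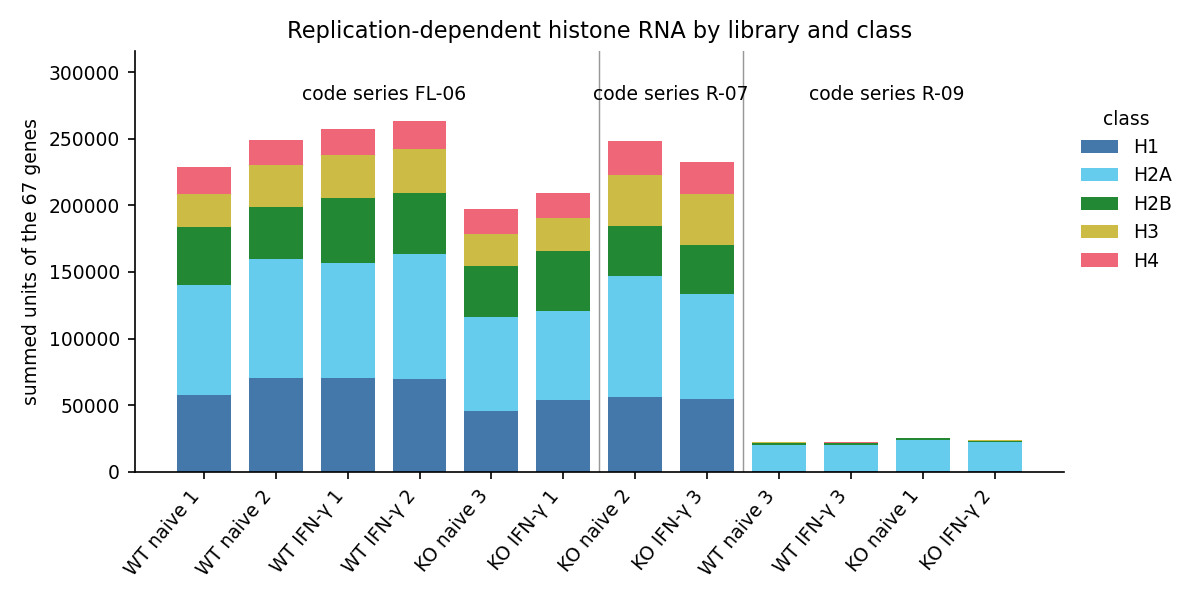
Summed units of the 67 genes in each library (linear axis from 0), stacked by histone class and ordered by code series. The 8 FL-06 and R-07 libraries stand at 197275 to 263410 units, and the 4 R-09 libraries at 22209 to 25614, nearly all of it H2A.

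What was left in R-09 was also of another make-up. Outside R-09, H1 took 22.6 to 28.3% of the summed units, H2A 32.0 to 36.6%, H2B 15.2 to 21.4%, H3 10.9 to 16.5% and H4 7.62 to 10.4% (units are not corrected for length). In R-09, H2A took 86.1 to 89.5% and H3 0.539 to 0.936%. The near-identical pair *Hist1h2ao* and *Hist1h2ap* gave 78.1 to 83.9% of the R-09 sums and 4.03 to 5.59% elsewhere. Without this pair, the sum was 3855 to 4887 units in R-09 and 187644 to 248988 outside it.

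The test of R-09 minus FL-06 was a limma fit of log2(units + 1) on 4 group means and the code series, over all 10816 genes with at least 100 units in at least 3 libraries, with Benjamini-Hochberg adjustment and a threshold of 0.05. Of 61 members that passed this filter, 57 were lower in R-09 and 1 was higher, beside 32.3% of all genes tested lower and 35.6% higher. The filter can be met by the FL-06 and R-07 libraries alone, and 50 of the 67 members had no R-09 library at 100 units. With no filter, 58 of all 67 members were lower and 1 higher, beside 19.9% and 25.3% of 17485 genes. The median log2 difference was -7.13 for the tested members and 0.23 for all genes. It was -7.01 without *Hist1h3h* and *Hist1h4f*, which were at 0 in all R-09 libraries. Every R-09 library lay below every other library in 57 members and above in 1, beside 26% and 29.3% of all genes tested. Of the 214 genes with a log2 difference of -5 or lower, 48 were members, and of the 100 lowest, 41 were.

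**Figure D2:**
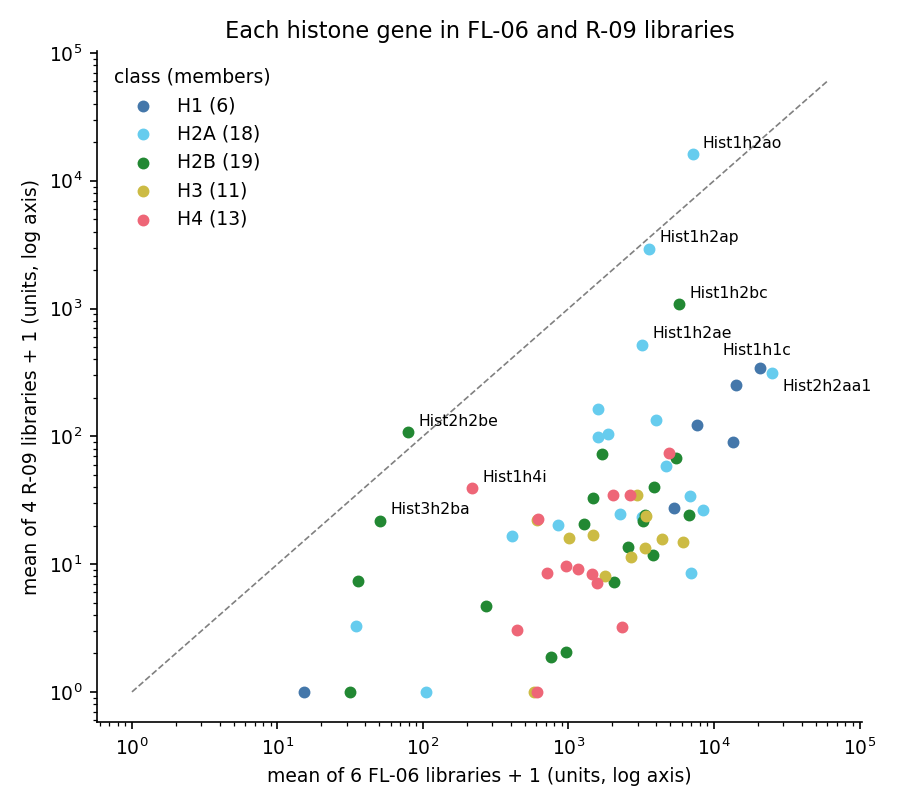
Mean level of each of the 67 genes in the 6 FL-06 libraries (x, units + 1, log axis) and in the 4 R-09 libraries (y, units + 1, log axis), coloured by class, with the line of equal level dashed. Most genes lie near 1% of their FL-06 level, while *Hist1h2ao* and *Hist2h2be* lie above the line and *Hist1h2ap* just below it.

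The median member kept 1.05% of its FL-06 mean in R-09, and 55 of 67 kept under 5%. The class medians were 1.12% for H1, 2.81% for H2A, 1.01% for H2B, 0.399% for H3 and 0.902% for H4. Members with the stem-loop letters in their annotated transcript kept a median of 1.23% (36 of 43 under 5%), and those without kept 1.03% (19 of 24). All 12 libraries expressed the genes used as a check of failed estimates, with 0 of 6 housekeeping genes at 0 in any library.

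All 5 tested linker histones, which bind the DNA between nucleosomes, were lower in R-09. *Hist1h1c* (H1.2), the linker gene with the most units, ran from 15240 to 25430 units in FL-06 (median 20070), was at 17250 and 16160 in R-07, and stood at 391.9, 352.2, 375.1 and 250.2 in WT naive 3, WT IFN-γ 3, KO naive 1 and KO IFN-γ 2 of R-09. The series did not overlap, and the log2 difference was -5.84 (SE 0.13, limma adjusted p = 3.812e-11). *Hist1h1e* (H1.4) fell from 14090 ± 2227 (SD, n = 6) to 251.7 ± 41.1 units (SD, n = 4), and *Hist1h1d* (H1.3) from 13520 ± 3305 to 90.0 ± 14.5. *Hist1h1b* and *Hist1h1a* (H1.5 and H1.1) had log2 differences of -5.95 and -7.77. The testis linker histone *Hist1h1t* did not reach 100 units in any library and was not tested.

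Of 16 tested H2A genes, the core histones that pair with H2B, 14 were lower, 1 was higher and 1 did not pass. *Hist2h2aa1* had the highest level of all members per length, at 64170 units per kb of coding sequence in FL-06, before *Hist1h1c* at 32320. It ran from 21560 to 29550 units in FL-06 (median 24670), stood at 26160 and 24420 in R-07 and at 680.4, 185.1, 227.4 and 163.9 in the R-09 libraries, with WT naive 3 the highest of these (log2 difference -6.48, SE 0.26, limma adjusted p = 2.547e-09). *Hist1h2af* had the most negative fitted difference of the tested members (log2 difference -10.57, SE 0.57). It had 5748 to 8706 units in FL-06 and 0, 2.35, 11.5 and 15.95 in R-09. It passed the filter on low values through libraries outside R-09 alone, so no p-value is given. By the ratio of means, *Hist1h4k* fell further, with 0.0962% left against 0.107%, and *Hist1h3h* and *Hist1h4f* were at 0. *Hist2h2ac* fell from 8411 ± 1025 (SD, n = 6) to 25.6 ± 21.5 units (SD, n = 4).

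*Hist1h2ao* was the exception. It ran from 4256 to 8929 units in FL-06 (median 7556), stood at 4075 and 3616 in R-07, and at 14240, 15230, 18520 and 16960 in WT naive 3, WT IFN-γ 3, KO naive 1 and KO IFN-γ 2. All 4 R-09 libraries were above all others (log2 difference 1.27, SE 0.18, limma adjusted p = 5.954e-05). Its near-copy *Hist1h2ap* overlapped, with 1842 to 5906 units in FL-06 (median 2988), 9818 and 7599 in R-07 and 2620 to 3163 in R-09 (log2 difference -0.19, SE 0.29, limma adjusted p = 0.5707). The mean of *Hist1h2ao* was 2.00 times that of *Hist1h2ap* in the FL-06 libraries, 0.442 times in the R-07 and 5.53 times in the R-09 libraries. Since the copies share most of their sequence, how reads were assigned to each was not tested. *Hist1h2ae* kept 16.3% of its FL-06 mean and *Hist1h2an* 10.2%, the next highest shares among tested H2A genes.

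Of 16 tested H2B genes, 15 were lower and 1 did not pass. *Hist2h2bb*, the H2B gene of highest mean, ran from 5207 to 7495 units in FL-06 (median 7072). It stood at 3129 and 3871 in R-07, and at 0, 3.98, 67.1 and 21.96 in R-09 (log2 difference -9.77, SE 0.71). Libraries outside R-09 alone brought it past the filter, so no p-value is given. *Hist1h2bc* kept more than most, at 4784 to 8087 units in FL-06 (median 5548), 3874 and 3615 in R-07 and 1336, 888.9, 1206 and 903.9 in R-09. The series still did not overlap, and the fall was 5.18-fold (log2 difference -2.37, SE 0.14, limma adjusted p = 4.543e-08). *Hist2h2be*, an H2B variant known from olfactory neurons, was low everywhere, at 33.0 to 127.4 units in FL-06, 182.3 and 123.4 in R-07 and 66.3 to 160.8 in R-09, and its series overlapped (log2 difference 0.53, SE 0.61, limma adjusted p = 0.4509). Both *Hist1h2bc* and *Hist2h2be* are among the 6 members whose longer annotated transcript lacks the stem-loop letters, and so are *Hist1h1a*, *Hist1h3g*, *Hist1h4a* and *Hist2h3b*, which kept 0.495%, 3.47%, 1.05% and 0.368%. The annotations of *Hist1h1a* and *Hist2h3b* may be too short to hold the letters.

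All 11 H3 genes were lower, and these core histones had the lowest class median, with 0.399% of the FL-06 mean left. Single H3 genes kept between 0 and 3.47%. *Hist2h3c2* ran from 4344 to 7858 units in FL-06 (median 6059) and stood at 7870 and 8014 in R-07. In R-09 it was at 15.1, 4.77, 14.99 and 20.7 (log2 difference -8.81, SE 0.35). Libraries outside R-09 alone brought it past the filter, so no p-value is given. *Hist1h3b* fell from 4417 ± 600.6 (SD, n = 6) to 14.7 ± 17.5 units (SD, n = 4), and *Hist1h3d* from 3394 ± 529.2 to 23.0 ± 15.6. *Hist1h3h* was at 231.3 to 1134 units in FL-06 and listed at 0 in all 4 R-09 libraries, so no fold is given.

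Of 13 H4 genes, 12 were lower and 1 did not pass. *Hist1h4d* ran from 4363 to 5301 units in FL-06 (median 4934) and stood at 4662 and 3525 in R-07. In R-09 it was at 11.5, 51.4, 104.3 and 125.5 (log2 difference -6.64, SE 0.42). Its R-09 libraries alone could not bring it past the filter, so no p-value is given. *Hist1h4h* had 2146 to 3172 units in FL-06 and 0 to 54.3 in R-09, and *Hist1h4k* 1723 to 2617 and 0 to 6.88. *Hist1h4i* was low and uneven, with 0 to 428.5 units in FL-06, 318.9 and 365.1 in R-07 and 20.5 to 68.0 in R-09. Its log2 difference of -1.53 (SE 1.34, limma adjusted p = 0.3253) did not pass, and the value of 0 came from WT naive 2, the shallowest library.

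**Figure D3:**
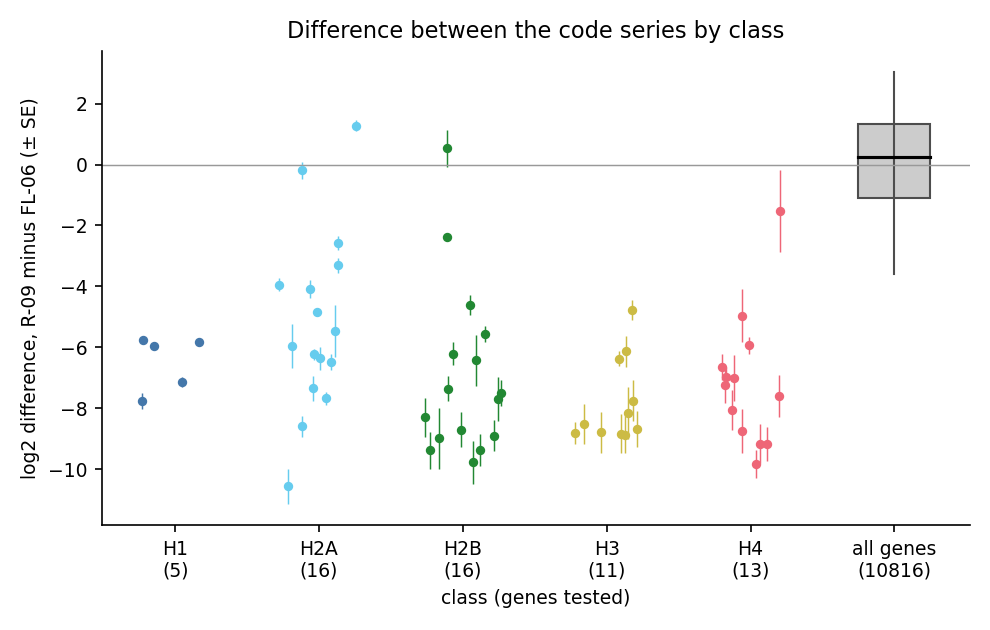
Log2 difference of R-09 minus FL-06 (± SE) for each tested histone gene by class, beside all 10816 genes tested (box from the lower to the upper quartile, line at the median of 0.23, whiskers to the 5th and 95th percentiles). All 5 H1 and all 11 H3 genes lie below -4, and the points near or above 0 are *Hist1h2ao*, *Hist1h2ap* and *Hist2h2be*.

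R-07 held KO libraries alone and was compared with FL-06 in the same fit, a contrast chosen with the data already in view. No member passed, beside 3.57% of all genes (0.536% higher and 3.03% lower). An unadjusted p below 0.05 was found for 7 members, beside 1641 of all 10816 genes. The median log2 difference was 0.35 for members and 0.10 for all genes. *Hist2h2bb* had the most negative difference (-2.13, SE 1.00, limma adjusted p = 0.3525). *Hist1h4m* had the most positive one (2.11, SE 1.25, limma adjusted p = 0.4837). Without the R-09 libraries, *Hist2h2bb* passed at -0.96 (limma adjusted p = 0.04162).

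The first question of the study is the response of WT HSCs to 24 h of IFN-γ. No histone gene passed (0 of 61), beside 0.00925% of all genes tested. An unadjusted p below 0.05 was found for 2 members, *Hist1h2bj* and *Hist2h3b*, beside 804 of all 10816 genes. The median log2 difference was 0.20 for members and 0.11 for all genes, with 41 of 61 members above 0 beside 62.19% of all genes. The most positive were *Hist1h4i* (2.92, SE 1.68), *Hist1h4a* (1.92, SE 0.87) and *Hist2h3b* (1.74, SE 0.74), and the most negative were *Hist1h2br* (-2.28, SE 1.24), *Hist1h2bk* (-1.37, SE 0.81) and *Hist1h3f* (-0.97, SE 0.80), with limma adjusted p from 0.6299 to 0.6920.

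Of these 6, *Hist1h2br* and *Hist1h3f* turned positive without the R-09 libraries. *Hist1h2br* had 4239, 3437 and 140.8 units in WT naive 1 to 3 and 4394, 4076 and 0 in WT IFN-γ 1 to 3, so that it was slightly higher after IFN-γ in FL-06 and lower in R-09. Its log2 difference was 0.15 without the R-09 libraries. The median SE of a member was 0.56 with all 12 libraries and 0.195 without R-09. Within FL-06, where 2 treated and 2 naive WT libraries could be set side by side, the median difference was 0.21 for members and 0.13 for all genes, with 48 of 61 members above 0 and 13 below, beside 61.58% of all genes above 0. The summed level there was 260300 ± 4341 units after IFN-γ and 239100 ± 14290 in naive HSCs (SD, n = 2 each), a ratio of 1.09. The naive values of 229004 and 249210 and the treated values of 257272 and 263410 did not overlap, and 1 of the naive libraries is the shallow WT naive 2. As a share of all units in the library they did overlap, at 1.308 and 1.487% naive and 1.455 and 1.522% treated. In R-09 the sums were 22293 units naive and 22209 treated. The smallest limma adjusted p of a member without R-09 was 0.3707.

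In *Bst2* KO HSCs no member passed after IFN-γ either (0 of 61), beside 0% of all genes. An unadjusted p below 0.05 was found for 2 members, *Hist1h2ai* and *Hist1h2ak*, beside 318 of all 10816 genes. The median log2 difference was 0.06 for members and 0.01 for all genes, and -0.01 for members without R-09. *Hist1h4h* (1.72, SE 0.96), *Hist1h3d* (1.59, SE 0.84) and *Hist1h2br* (1.31, SE 1.24) were the most positive, and *Hist1h3i* (-1.82, SE 1.07), *Hist1h4j* (-1.59, SE 0.81) and *Hist1h2bq* (-1.40, SE 0.91) the most negative, each with limma adjusted p = 0.9998. *Hist1h4h* had 0, 2236 and 2698 units in KO naive 1 to 3 and 2332, 35.8 and 2517 in KO IFN-γ 1 to 3, and its log2 difference without R-09 was -0.020. The summed level went from 197275 to 209437 units in FL-06, from 248623 to 232505 in R-07 and from 25614 to 23903 in R-09, naive to treated, with 1 library on each side. The direction therefore differed between code series.

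**Figure D4:**
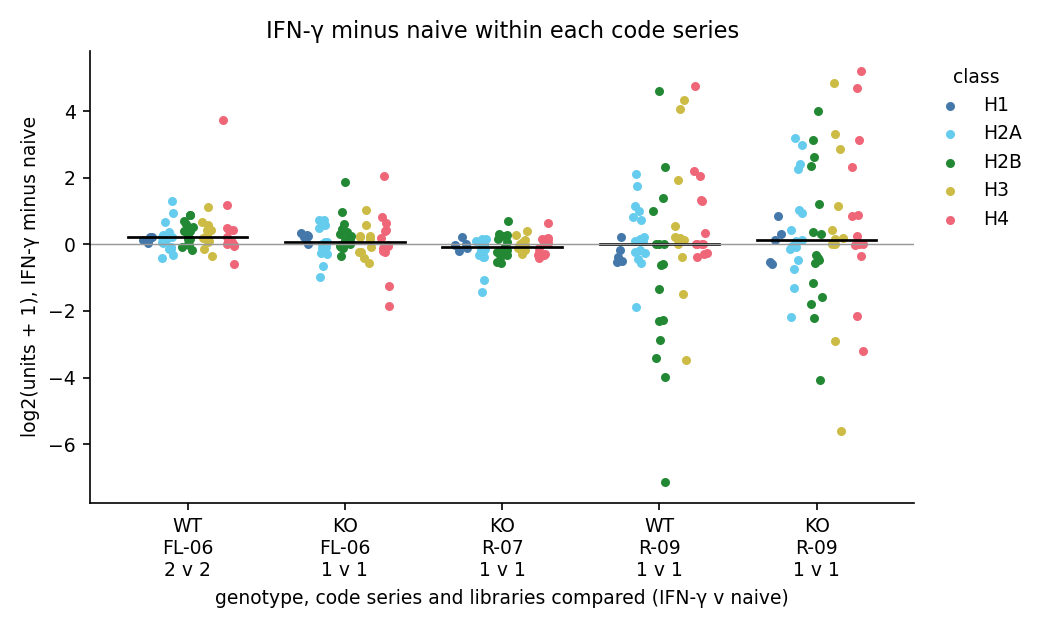
Log2(units + 1) of IFN-γ minus naive libraries for each of the 61 tested histone genes within each genotype and code series, coloured by class, with the median as a bar. The medians lie between -0.08 and 0.21, and the R-09 points spread widest, from -7.15 to 5.20.

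Direction by gene was read in the 3 combinations outside R-09 (WT in FL-06, KO in FL-06 and KO in R-07). It was upward in all 3 for 9 members, downward for 3 and mixed for 49. The members' shares of 14.75% upward and 4.92% downward stand beside 17.59% and 10.73% of all genes tested. *Hist1h3g* was higher by 0.67, 1.03 and 0.41 on the log2 scale, and *Hist1h2be* by 0.53, 0.45 and 0.25. *Hist2h2bb* was higher by 0.28, 0.30 and 0.31. *Hist1h2ak* was lower in all 3, by -0.41, -0.65 and -1.07, and *Hist1h3e* by -0.35, -0.55 and -0.17. None of these passed a test.

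Averaged over both genotypes, the IFN-γ effect had 0 of 61 members past the threshold, beside 0.0647% of all genes tested. An unadjusted p below 0.05 was found for 2 members (*Hist1h2ak* and *Hist1h4a*), beside 655 of all 10816 genes. The member median was 0.11 and that of all genes 0.07. *Hist1h4i* (1.98, SE 1.19), *Hist1h4a* (1.49, SE 0.62) and *Hist4h4* (1.13, SE 0.52) were the most positive, and *Hist1h4j* (-0.76, SE 0.57), *Hist1h2bn* (-0.72, SE 0.54) and *Hist1h2bk* (-0.70, SE 0.57) the most negative, with limma adjusted p from 0.7951 to 0.8076.

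Between genotypes, no member passed in naive HSCs (0 of 61, beside 0% of all genes). An unadjusted p below 0.05 was found for 6 members, beside 702 of all 10816 genes. *Bst2* itself did not pass in this fit, at -6.72 (SE 1.39, limma adjusted p = 0.7074) in naive HSCs. After IFN-γ, *Bst2* was at -6.51 (SE 1.39) and did not pass either. The lack of calls between genotypes therefore does not show that levels were equal. The median difference of KO minus WT was -0.13 for members and 0.07 for all genes. *Hist2h2bb* was at 2.43 (SE 0.95), *Hist1h3i* at 1.88 (SE 1.148) and *Hist1h2bq* at 1.85 (SE 0.97), and *Hist1h2br* at -2.58 (SE 1.33), *Hist1h4h* at -2.24 (SE 1.03) and *Hist1h4m* at -2.17 (SE 1.18), with limma adjusted p from 0.7074 to 0.7165. *Hist2h2bb* had 6975, 5207 and 0 units in WT naive 1 to 3 and 67.1, 3129 and 6086 in KO naive 1 to 3, and the groups overlapped.

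After IFN-γ, 0 of 61 members passed between genotypes, beside 0% of all genes. An unadjusted p below 0.05 was found for 5 members, beside 226 of all 10816 genes. These 5 were *Hist1h1c*, *Hist1h1d*, *Hist1h2ab*, *Hist1h2ah* and *Hist1h4k*, all lower in KO. The median difference was -0.30 for members and -0.04 for all genes, and -0.29 for members without R-09. *Hist1h2ah* was at -1.51 (SE 0.50), *Hist1h3c* at -1.72 (SE 0.88) and *Hist1h2ad* at -1.76 (SE 0.97). *Hist1h4b* (1.38, SE 0.97), *Hist1h2bk* (1.31, SE 0.87) and *Hist1h2bn* (1.26, SE 0.82) were the most positive, each with limma adjusted p = 1.0. *Hist1h2ah* had 2562, 2893 and 31.6 units in WT IFN-γ 1 to 3 and 1295, 5.89 and 1843 in KO IFN-γ 1 to 3. Within FL-06 the KO sums (197275 naive, 209437 treated) lay below all 4 WT sums (229004 to 263410), while the R-07 KO sums of 248623 and 232505 lay within the WT range. In R-09 the KO sums (25614 naive, 23903 treated) lay above the WT sums (22293 and 22209), with 1 library in each group.

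The interaction compares the response to IFN-γ between the genotypes. No member passed (0 of 61, beside 0% of all genes). *Hist1h2bq* alone among members had an unadjusted p below 0.05, beside 367 of all 10816 genes. The median was -0.10 for members and -0.11 for all genes. *Hist1h2br* was at 3.59 (SE 1.75), *Hist1h3f* at 1.99 (SE 1.13) and *Hist1h4h* at 1.76 (SE 1.36), and *Hist1h3i* at -3.08 (SE 1.52), *Hist1h2bq* at -3.04 (SE 1.28) and *Hist1h4i* at -1.88 (SE 2.37), with limma adjusted p from 0.9331 to 0.9347. *Hist1h2bq* and *Hist1h2br*, whose annotated transcripts are identical in their 31-base words, were at opposite ends. How the counting split reads between these copies was not tested.

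Genes around the histone pathway were counted on lists chosen with earlier results of these data known. Of 18 tested genes for transcription and 3′ end processing of histone mRNA, 11 were lower and 4 higher in R-09 than in FL-06, beside the 32.3% and 35.6% of all genes above. *Slbp*, which binds the stem-loop, was 1.26-fold higher (2843 to 4440 units in FL-06, 4231 to 5807 in R-09, limma adjusted p = 0.04311). *Lsm10*, a subunit of the U7 particle that directs the cut, was 8.50-fold higher. *Casp8ap2* (FLASH), which recruits the cleavage complex, was 6.32-fold lower, and *Npat*, the activator of histone transcription, 1.97-fold lower. *Sympk*, the scaffold of the cleavage complex, was 5.11-fold lower. None of these 18 genes passed in any comparison of IFN-γ or genotype.

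Of 10 tested replacement histones, 8 were higher in R-09 and 1 was lower, beside the same 35.6% and 32.3% of all genes. *H2afz* (H2A.Z) went from 5095 to 8311 units in FL-06 to 19830 to 25920 in R-09 (3.54-fold, limma adjusted p = 2.661e-07), and *H3f3b*, which encodes H3.3, from 9780 to 12420 to 26090 to 35490 (2.61-fold, limma adjusted p = 3.629e-07). *H1fx* was 1.48-fold lower. The summed level of this list was 39310 to 47570 units in FL-06, 39970 and 43900 in R-07 and 85420 to 102300 in R-09.

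Histone chaperones were split, with 10 of 17 lower and 4 higher in R-09, beside 32.3% lower and 35.6% higher among all genes. *Supt16*, a subunit of the FACT complex, was 30.6-fold lower and *Hira*, which deposits H3.3, was 11.3-fold lower, while *Asf1b*, an H3-H4 chaperone, was 5.62-fold higher. Of 34 S-phase genes 16 were higher and 8 lower, beside 35.6% and 32.3% of all genes. *Tk1* (thymidine kinase) was 4.17-fold and *Rrm2* (ribonucleotide reductase) 2.11-fold higher, *Mki67*, the proliferation marker, was 45.4-fold lower, and *Mcm6*, part of the replicative helicase, was at 10990 to 12990 units in FL-06 and 10560 to 13610 in R-09. The summed S-phase level was 116700 to 133200 units in FL-06 and 92040 to 109200 in R-09.

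Of 11 other RNAs that lack a poly(A) tail, 7 were in the table and 4 of these were at 0 in all 12 libraries. The other 3, *Rpph1*, *Rmrp* and *Terc*, passed the filter on low values through libraries outside R-09 alone, so their values are given with no test. Those of *Rpph1* stand above. *Rmrp*, the RNA of RNase MRP, had 2401 to 9078 units in FL-06, 8700 and 11010 in R-07 and 0 to 8.84 in R-09. *Terc*, the telomerase RNA, had 0 to 201.8 units in FL-06, 539.1 and 354.4 in R-07, and was listed at 0 in all R-09 libraries. In R-07 the summed level of this list was 143200 and 153100 units, beside 134800 to 267600 in FL-06.

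**Figure D5:**
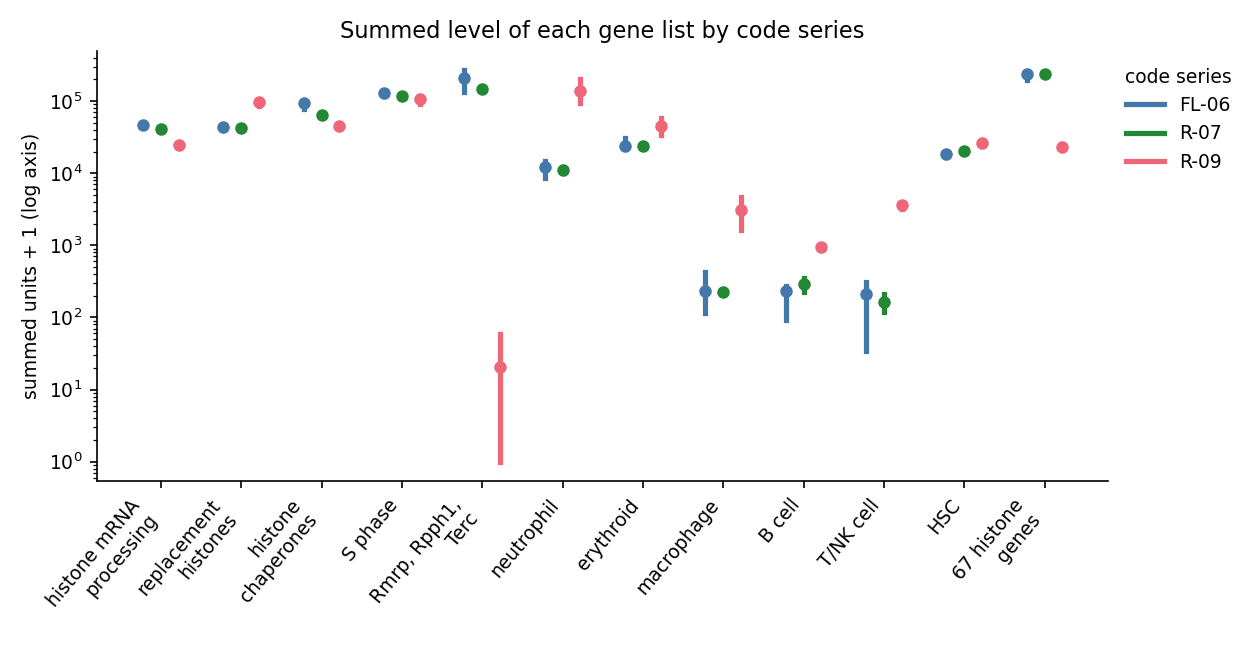
Summed units + 1 (log axis) of each gene list by code series, with a line from the lowest to the highest library and a dot at the median (6 FL-06, 2 R-07 and 4 R-09 libraries). The 67 histone genes, the poly(A)-less list (whose units all come from *Rmrp*, *Rpph1* and *Terc*) and the histone processing, chaperone and S-phase lists are lowest in R-09, and the replacement histones and all 6 cell type lists (neutrophil, erythroid, macrophage, B cell, T/NK cell and HSC) are highest there.

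Markers of other cell types moved with the code series too. The filter on low values can be met by the 4 R-09 libraries alone. The counts of tested macrophage, B cell and T and NK genes called higher there may therefore follow from the filter. The neutrophil list (8 of 8 tested genes higher in R-09) summed to 8547 to 14900 units in FL-06, 10070 and 12360 in R-07 and 94380 to 204900 in R-09. The macrophage list (5 of 5 tested, of 6) summed to 114.8 to 423.7 and 1623 to 4726 units in FL-06 and R-09, the erythroid list (6 of 6 tested, of 8) to 21880 to 30570 and 34050 to 58730, and the B cell list (1 of 1 tested, of 5) to 92.5 to 269.4 and 855.9 to 1018. The T and NK cell list (1 of 1 tested, of 5) summed to 33.6 to 304.2 and 3213 to 3732 units, nearly all of it *Nkg7*. *Cd3e* and *Ncr1*, defining markers of T and NK cells, were at 0 in all 12 libraries. Of 9 tested HSC genes 4 were higher and 4 lower. The counts of all these lists stand beside 35.6% higher and 32.3% lower among all genes tested. The HSC list summed to 16820 to 20270 units in FL-06, 19370 and 21840 in R-07 and 23870 to 29180 in R-09. *Kit*, *Slamf1*, *Mecom* and *Procr* were above 0 in all FL-06 and R-09 libraries, and *Cd34*, absent from the surface of the gated cells, had 462.1 to 773.6 units in FL-06 and 3098 to 3629 in R-09. The part of these cell markers in the histone difference was not tested.

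Among tested genes outside the histone names, the 8 whose levels followed the summed histone level most closely over the 12 libraries were *Prpf8*, *Trrap*, *Eif4g1*, *Tpt1*, *Kmt2d*, *Larp1*, *Ubr4* and *Rad23b*, with Pearson r of 0.997 to 0.998. In all 8 genes the R-09 libraries lay below those of FL-06 and R-07, and these r values describe that split. The size of the fall differed among these 8 genes. *Prpf8* had 11820 to 15600 units in FL-06, 13510 and 14060 in R-07 and 871.1 to 1208 in R-09. *Kmt2d* had 11340 to 12560 units in FL-06 and 196.2 to 246.9 in R-09, and *Ubr4* 11780 to 14000 and 334.3 to 412. *Tpt1* had 27060 to 32710 units in FL-06 and 5463 to 6234 in R-09.

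Within FL-06 the coefficient of variation over the 6 libraries ran from 7.02% to 71.2% over tested members with a median of 21.5%. *Hist1h3i* and *Hist1h4d* were the steadiest, at 7.02% and 7.37%, and *Hist1h4m* (71.2%), *Hist1h4i* (70.1%) and *Hist1h3h* (64.7%) the least steady. These last 3 were among the members of lower level, where WT naive 2 steps in units of about 33.8, against 0.339 to 1.74 in the other libraries.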

How the data were processed

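The authors deposited normalized counts per gene, a signal that is never negative and not whole reads, in a table with a second copy of identical values. The submitters' processing notes name STAR and DESeq with no version. The sources used here give no build, annotation or rule for strand and for reads that match several genes. Per the labels, a stranded total RNA kit was used. Of 24972 rows, 26 with names turned into dates were left out. The normalized totals were 13.8 to 17.7 M units per library, and the depth in reads is unknown. Low values stepped by 33.8 units in WT naive 2 (10567 genes above 0), which was taken as the shallowest library.

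The planned unit was counts. Since the values were not counts, log2(value + 1) was fitted with limma 3.58.1 (trend, R 4.3.3) on 4 group means and the code series over all 12 libraries (residual df 6, prior df 5.02), for genes of at least 100 in at least 3 libraries, with Benjamini-Hochberg adjustment over all 10816. Fold changes are on that scale, which understates the change of low genes. Members, lists and the named-gene rule were chosen with earlier results of these data known. The rule took every member past the threshold, the 3 of highest mean in each class, the 3 largest and 3 smallest differences in each comparison, and up to 4 members of each list. The fit was tested on simulated data, with changes placed only in genes of at least 100 units in all 12 libraries. Changes in genes near 0 in R-09, as most members are, were not simulated. Deviations of libraries with the same replicate number correlated at -0.88 to 0.83 over 18 pairs (8 above 0.1, among them all 5 pairs of 1 code series). All 3 pairs of WT naive and WT IFN-γ were above 0.1 (0.46 to 0.83), so a fit of the WT libraries alone with the replicate block was added after seeing the data. In the other group pairs the numbers were not treated as pairs. Alternatives were a pseudocount of 10, no filter, at least 20 in at least 3 libraries, quantile normalization, no code series, a replicate block, array weights, each library left out, and, chosen after seeing the data, all R-09 libraries left out and FL-06 alone. Stem-loops and promoters were read from GENCODE M21 and RefSeq by gene name (pandas 2.3.3).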

Additional observations from a re-analysis of the deposited data

How the results depend on the processing

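The call of 57 histone genes lower and 1 higher in R-09 than in FL-06 changed by at most 1 gene under the alternatives run, including each library left out, with a member median between -7.49 and -6.02. In the 6 comparisons of IFN-γ and genotype, 0 members passed under every alternative run. In R-07 minus FL-06, 1 member passed with quantile normalization (*Hist1h2ap*, higher), with array weights (*Hist1h2ao*, lower) and without the R-09 libraries (*Hist2h2bb*, lower), and with 1 library left out the count ran from 0 to 1 (1 without WT IFN-γ 2, *Hist1h2ap*, and without KO naive 3, *Hist1h2ao*), against 0 with all libraries. The replicate block, in place of the code series, gave 0 members past the threshold in each IFN-γ and genotype comparison, and 0 genes of all kinds. The WT libraries alone with the replicate block also gave 0 members and 0 genes for IFN-γ in WT. The member median was 0.20 and the smallest limma adjusted p of the 61 tested members was 0.7625. *Hist1h2ap* in R-09 minus FL-06 was at 0.0076 with quantile normalization and between -0.37 and 0.016 with 1 library left out, the positive value without WT IFN-γ 2.

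Some member medians near 0 changed sign. That of IFN-γ in KO (0.06) was -0.11 with quantile normalization, -0.054 without KO naive 3, -0.0011 without KO IFN-γ 2 and -0.0081 without the R-09 libraries. That of KO minus WT in naive HSCs (-0.13) was 0.019 with no code series and with the replicate block. That of the interaction (-0.10) was 0.033 without KO naive 2 and without KO IFN-γ 3. Among the members named in each comparison, log2 differences that had not passed turned direction. Without the R-09 libraries these were *Hist1h2br* at 0.15 and *Hist1h3f* at 0.28 in the IFN-γ effect in WT. In the effect in KO they were *Hist1h3i* at 0.068, *Hist1h2br* at -0.048, *Hist1h3d* at -0.040 and *Hist1h4h* at -0.020. In KO minus WT they were *Hist1h2bq* at -0.13 and *Hist1h3i* at -0.088 in naive HSCs, and *Hist1h3c* at 0.053, *Hist1h2bk* at -0.41 and *Hist1h4b* at -0.46 after IFN-γ. In the interaction they were *Hist1h3i* at 0.22, *Hist1h4h* at -0.10, *Hist1h3f* at -0.18 and *Hist1h2br* at -0.20, and in the averaged effect *Hist1h2bn* at 0.18 and *Hist1h2bk* at 0.070. In FL-06 alone they were *Hist1h2br* at 0.15 and *Hist1h3f* at 0.28 in WT, and *Hist1h3i* at 0.21, *Hist1h2bq* at 0.19, *Hist1h3d* at -0.22 and *Hist1h4h* at -0.21 in KO. In KO minus WT they were *Hist1h4h* at 0.048, *Hist1h4m* at 0.19, *Hist1h2bq* at -0.26 and *Hist1h3i* at -0.16 in naive HSCs, and *Hist1h3c* at 0.22, *Hist1h2bk* at -0.45 and *Hist1h4b* at -0.44 after IFN-γ. In the interaction they were *Hist1h3i* at 0.36, *Hist1h2bq* at 0.042, *Hist1h4h* at -0.29 and *Hist1h3f* at -0.37, and in the averaged effect *Hist1h2bn* at 0.30 and *Hist1h2bk* at 0.031.

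With 1 library left out, the range was -1.95 to 0.0915 for *Hist1h2bk* (positive without WT IFN-γ 3) and -1.46 to 0.26 for *Hist1h3f* (positive without WT naive 3) in the IFN-γ effect in WT, and -0.086 to 2.99 for *Hist1h4h* in KO (negative without KO naive 1). In KO minus WT after IFN-γ it was -0.064 to 1.72 for *Hist1h2bn* and -0.36 to 1.98 for *Hist1h2bk*, both negative without WT IFN-γ 3. In the interaction it was -3.71 to 0.73 for *Hist1h4i* (positive without WT naive 2) and -0.045 to 3.03 for *Hist1h4h* (negative without KO naive 1), and in the averaged effect -0.997 to 0.035 for *Hist1h2bk* (positive without WT IFN-γ 3).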

Other observations

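The class make-up of the 2 R-07 libraries, both from KO mice, differed from that of the 6 FL-06 libraries. H3 genes took 15.3 and 16.5% of the summed histone units in R-07 and 10.9 to 12.6% in FL-06, and H4 genes 10.3 and 10.4% against 7.62 to 9.33%. The summed H3 level was 38130 and 38450 units in R-07 and 24040 to 33200 in FL-06. H2B genes took 15.2 and 15.8% in R-07 and 15.7 to 21.4% in FL-06. *Hist1h4n* had 3695 and 3139 units in R-07 and 1237 to 1917 in FL-06, and *Hist1h3a* 2273 and 2255 against 500.9 to 1579. *Hist1h4n* and *Hist1h3a* were named after their values were seen. These differences were not tested as class values, and no single member passed in the fit of R-07 against FL-06.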
